A study of Mus musculus with 8 samples.

Results

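Selectins, the selectin ligand PSGL-1, the immunoglobulin-type adhesion molecules and the hyaluronan receptor CD44 were followed in lungs of ventilated and non-ventilated mice. The 9 genes Sele, Selp, Selplg, Icam1, Icam2, Vcam1, Pecam1, Cd44 and Esam were taken by name, as every probe that the array's annotation assigns to one of these symbols. These are 9 of the 16593 named genes on the array, measured by 15 of its 25697 probes, 6 of them for Cd44, 2 for Pecam1 and 1 for each other gene. Whole lungs of 8 NOD/shi mice aged 6 to 12 weeks were measured. NOD/shi is a substrain of the non-obese diabetic mouse, an inbred strain prone to autoimmune diabetes. The control group held 3 mice that were not ventilated, and the other group held 5 mice put on a mechanical ventilator to model the lung injury that ventilation can cause. The sources used here do not give the ventilator settings, the duration, the anaesthesia or the handling of the controls. The labels number every lung as a separate sample, and p-values measure the spread between these samples.

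Leukocytes leave the blood in steps. Selectins on endothelium and platelets catch them through PSGL-1, integrins on the leukocyte then bind ICAM-1, ICAM-2 and VCAM-1, and PECAM-1 and ESAM at the endothelial junctions take part in the passage through the wall. Endothelium activated by cytokines transcribes E-selectin, VCAM-1 and ICAM-1 through NF-kappaB, whereas ICAM-2, PECAM-1 and ESAM are made constitutively; in lung, many neutrophils are held in the capillaries, where selectins are less needed than in venules.

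None of the adhesion molecule transcripts passed the test between ventilated and control lungs. Icam1 and Esam, which were bright on every array, had log2 fold changes of −0.29 ± 0.24 (SE) and 0.00 ± 0.23. The largest differences were those of Selplg, at 0.62 ± 0.28, and Vcam1, at 0.41 ± 0.22, with 3 and 4 of the 5 ventilated lungs above every control. Nearly as large was the fall of the brightest Cd44 probe, at −0.40 ± 0.22, with 4 of the 5 ventilated lungs below every control. The dimmer Pecam1 probe stood at 0.40 ± 0.25, with 3 of the 5 above every control. Sele, the transcript most restricted to activated endothelium, was detected on 1 of 3 control and 2 of 5 ventilated arrays.

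A probe was tested if its detection p was under 0.05 on at least 3 of the 8 arrays, which 14 of the 15 member probes and 13374 of all probes met. The remaining probe, ILMN_2697830 of Cd44, was detected on 1 ventilated array alone. In limma, 0 of the 14 probes had a Benjamini-Hochberg adjusted p under 0.05, beside 1.62% of all probes tested. An unadjusted p under 0.05 was reached by 1 of the 14, that of Selplg, beside 15% of all probes. No member probe had groups that did not overlap, which 12.2% of all probes had (6.12% higher and 6.08% lower in ventilated lungs). A fold is given for the 13 member probes that at least 1 array of each group detected. Of their log2 fold changes 6 lay above and 7 below 0, with a median of −0.03 beside 0.00 over all 13228 such probes. The median size of the change, whatever its sign, was 0.28 beside 0.29.

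These data could have missed moderate changes. The 95% interval of a log2 fold change, not adjusted for the number of probes, had a half-width of 0.48 for the most precise of the 13 probes, 0.60 for the median and 0.97 for Selp, the least precise. On the fold scale the median half-width is 1.52-fold to either side.

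**Figure D1:**
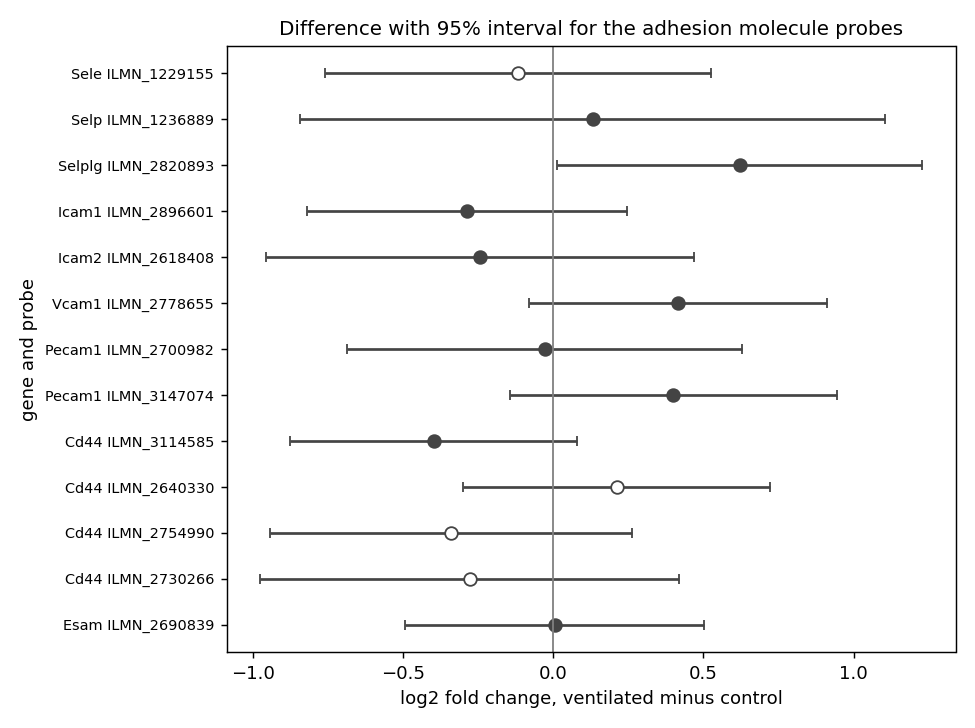
Log2 fold change (ventilated minus control, x axis) of the 13 probes detected in both groups (y axis) with bars for the 95% interval; filled points are probes detected on all 8 arrays and open points those detected on fewer. The interval of Selplg lies just above 0, from 0.01 to 1.23, and every other interval crosses 0.

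Array brightness varied several-fold among the controls as among the ventilated lungs. Mean probe intensity ran from 54.3 to 332 on the control arrays and from 87.4 to 321 on the ventilated ones, and 8080 to 14313 probes were detected per array. Control 2 was the dimmest array and stood apart, with Pearson correlations across probes of 0.84 to 0.90 with the others, where the lowest of any other pair was 0.91. Control 1 carried more transcript of skeletal muscle genes, with a list score of 2.43 above the control mean against at most −0.78 in any other lung. The number of arrays limits the precision of every value. In whole lung, fewer cells of a type and less RNA per cell cannot be told apart.

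Sele encodes E-selectin, which cytokine-activated endothelium displays to slow rolling leukocytes, and Icam1 encodes the main endothelial ligand of the leukocyte integrins LFA-1 and Mac-1. Both are textbook cytokine-inducible genes, and stretches of their promoters are shown as the sequence around their start sites. They come from RefSeq (build GRCm38.p6), in which 4 of the 9 genes had an entry (Sele, Selp, Cd44 and Icam1). Each runs from 150 bases before the annotated start to 20 after it on the plus strand, at chr1:164048084-164048253 for Sele and chr9:21015790-21015959 for Icam1, with motif matches in capitals.
Sele: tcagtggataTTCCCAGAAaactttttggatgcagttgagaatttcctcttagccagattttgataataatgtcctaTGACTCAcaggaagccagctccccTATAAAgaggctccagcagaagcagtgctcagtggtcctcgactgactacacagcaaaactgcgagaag
Icam1: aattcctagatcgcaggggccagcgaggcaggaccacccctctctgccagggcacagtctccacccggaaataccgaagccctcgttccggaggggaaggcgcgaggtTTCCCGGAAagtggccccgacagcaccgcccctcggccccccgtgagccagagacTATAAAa
Over the whole window, from 250 bases before to 50 after the start, 4 motifs were searched on both strands, counting the last base before the start as −1. The Sele promoter held the STAT-type palindrome TTCNNNGAA at −140, the AP-1-type motif TGANTCA at −73 and the TATA box letters TATAAA at −49. The Icam1 promoter held TTCNNNGAA at −42 and, after the annotated start rather than before it, the letters TATAAA at 14. These motifs occurred in 8.3%, 7.81% and 13.6% of the 32851 promoters in the table. The 10-letter NF-kappaB consensus GGRRNNYYCC (R for A or G, Y for C or T, N for any base) was found in 11.2% of promoters. It had no match in the window of either gene, which says only that these letters are absent there. Stretches that differ from this consensus by a single letter were not counted. Examples are ggataTTCCC and gagaatttcc in the Sele stretch and gaggtTTCCC in the Icam1 stretch. None of the motif matches overlapped another. Selp held TGANTCA at −139 and no other of the 4 motifs, and Cd44 held none of them.

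Sele stood close to background. Its intensity before normalization was 97.7, 41.9 and 49.4 in controls 1 to 3. Ventilated lungs 1 to 5 had 52.4, 56.8, 55.0, 40.4 and 57.1. It was above background on control 1, ventilated 1 and ventilated 3, so that detection did not follow the groups. After normalization the log2 levels were 5.14, 4.90 and 4.38 in controls and 5.08, 4.54, 5.19, 4.24 and 4.41 in ventilated lungs. The groups overlapped throughout, with a log2 fold change of −0.12 ± 0.29 (adjusted p = 0.896). The 95% interval reached from 1.70-fold lower to 1.44-fold higher.

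Selp encodes P-selectin, which endothelial cells and platelets keep in storage granules and bring to the surface on activation. It was detected on all 8 arrays, at log2 levels of 4.62, 6.38 and 5.04 in controls and 5.96, 5.48, 5.01, 6.20 and 4.75 in ventilated lungs. Control 2 was the highest and control 1 the lowest of all 8, so the controls spanned the ventilated lungs. The log2 fold change was 0.13 ± 0.44 (adjusted p = 0.925), and 0.69 without control 2 (adjusted p = 0.429). The level of Selp fell with array brightness over the 8 arrays, with Pearson's r = −0.90 (exact permutation p = 0.00417, adjusted p = 0.0375 over the 9 member probes detected on all arrays) and Spearman's rho = −0.93 (exact permutation p = 0.00223, adjusted p = 0.0201). Without controls 1 and 2, the arrays farthest from the median brightness, r was −0.81. The adjusted p of the other 8 was at least 0.42 by Pearson and 0.59 by Spearman. An r as low as that of Selp was not rare at its level. It was found for 1.9% of the 6685 probes detected on all arrays and for 10.8% of the 343 whose mean log2 level was within 0.5 of that of Selp. With array brightness as a block its log2 fold change was −0.12, with 0.38 among the 4 brighter arrays and −0.36 among the 4 dimmer ones, which hold a single control. Platelet genes, another source of Selp transcript, had 0 of 8 measured members past the threshold, and their summed normalized level was 762 to 1051 in controls and 959 to 1467 in ventilated lungs. Their list score, a mean log2 level against the control mean, was higher in every ventilated lung, at 0.28 to 0.80, than in any control, at −0.16 to 0.24. Their part in the Selp values was not tested.

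**Figure D2:**
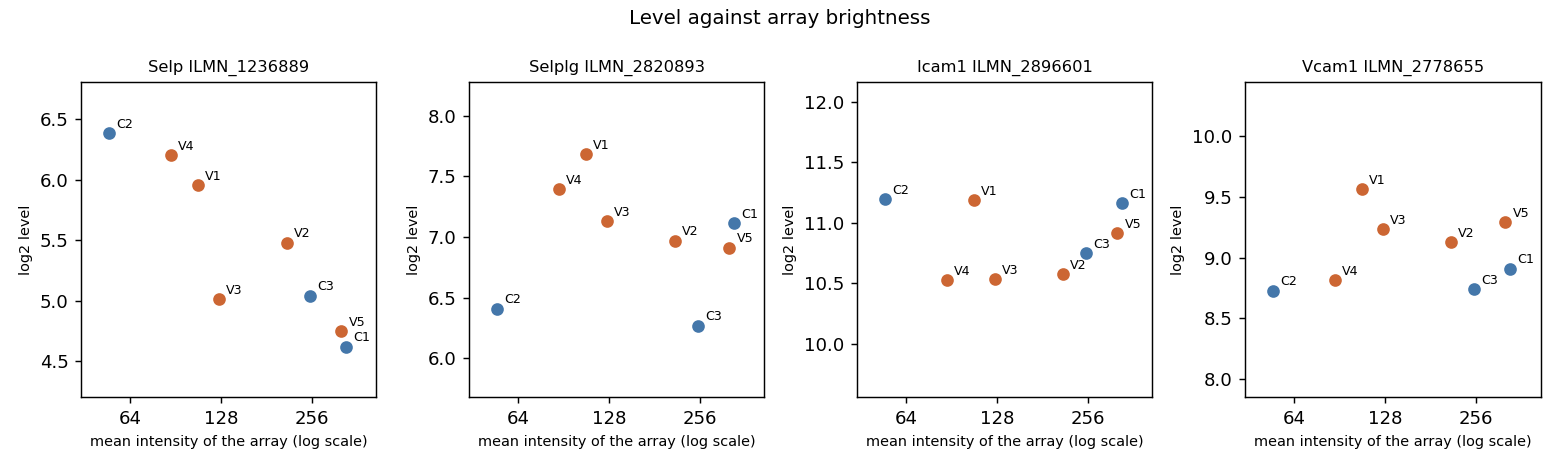
Normalized log2 level (y axis) of 4 probes against the mean intensity of the array (x axis, log scale), with controls C1 to C3 in blue and ventilated lungs V1 to V5 in orange. Selp is lower on brighter arrays, while r was −0.11 for Selplg, −0.06 for Icam1 and 0.13 for Vcam1 (−0.77, 0.12 and −0.09 without controls 1 and 2).

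Selplg encodes PSGL-1, the leukocyte surface mucin that all the selectins bind. Its log2 levels were 7.12, 6.41 and 6.27 in controls and 7.68, 6.97, 7.13, 7.40 and 6.91 in ventilated lungs. Ventilated 1, 3 and 4 lay above every control, while ventilated 2 and 5 lay below control 1. Control lungs averaged 6.60 ± 0.45 (SD, n = 3) and ventilated lungs 7.22 ± 0.32 (SD, n = 5), a 1.54-fold difference that did not pass (limma adjusted p = 0.324). Its 95% interval ran from 1.01-fold to 2.34-fold. The log2 fold change stayed above 0 under all 25 alternatives, at 0.45 without control 3 and 0.87 without control 1, at 0.27 among the brighter and 0.79 among the dimmer arrays, and at 0.17 in the deposited value table. Its adjusted p was at least 0.166 under every one of them.

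Neutrophil genes, a cell type that carries PSGL-1, were higher in every ventilated lung. Of 12 measured neutrophil genes, out of 15 on the array and 18 listed, 6 rose and none fell, and all 15 were detected on at least 1 array. Their summed normalized level was 1794 to 2168 in controls and 9237 to 21650 in ventilated lungs. The neutrophil list score, the mean log2 level of its genes against the control mean, was 3.17 in ventilated 1, which also had the highest Selplg and Vcam1 levels, and 1.78 in ventilated 4, which had the second highest Selplg level and the lowest Vcam1 level of the ventilated lungs. Lymphocyte genes had 1 of 7 members past the threshold, the T cell receptor subunit Cd3d, with summed levels of 221 to 310 in controls and 336 to 465 in ventilated lungs and Cd5 and Klrb1c detected on no array. The part of either cell type in the values of Selplg and Vcam1 was not tested. Since neutrophil scores fall into 2 separate clusters, a correlation over all lungs is not given.

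**Figure D3:**
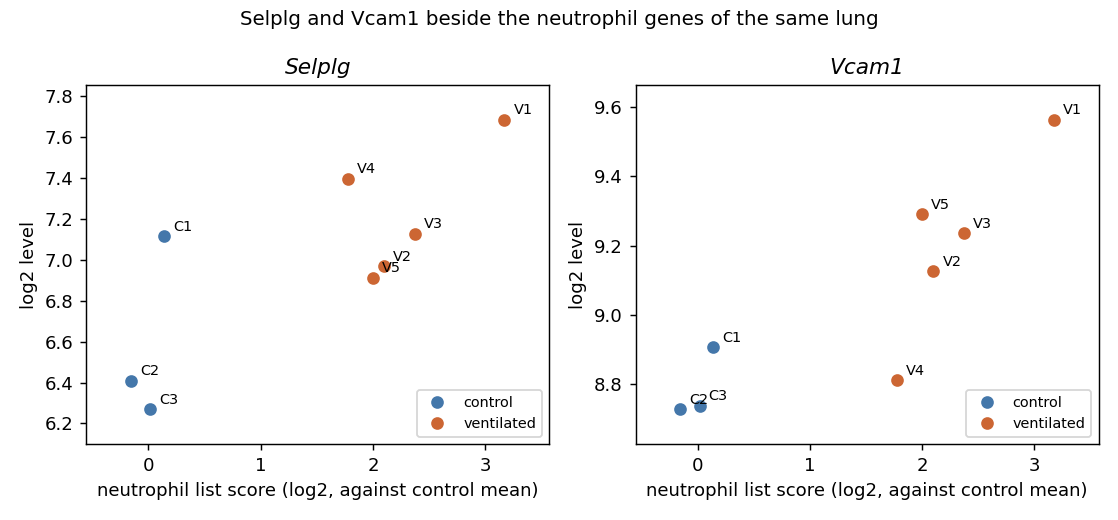
Normalized log2 level of Selplg (left) and Vcam1 (right) against the neutrophil list score of the same lung (log2, against the control mean), with controls C1 to C3 and ventilated lungs V1 to V5. The controls sit between −0.15 and 0.14 on the x axis and the ventilated lungs between 1.78 and 3.17; V1 is highest on both axes in both panels.

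Selplg had the smallest p of the members, and the named genes whose levels over the 8 arrays were most like it were Atf3, Cited4, Glipr2, Emilin2 and Ints7. Their Pearson correlations with Selplg were 0.93 to 0.94, the highest among 9424 genes compared, and 0.91 to 0.94 without control 2. They were picked as the highest of that many over only 8 arrays, and whether values of this size arise by chance was not tested. None of the 5 passed the test, with log2 fold changes of 0.23 to 1.28.

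Icam1 was bright on all arrays and did not rise. Its log2 levels were 11.16, 11.19 and 10.75 in controls and 11.19, 10.58, 10.53, 10.53 and 10.91 in ventilated lungs. Ventilated 2, 3 and 4 lay below every control and no ventilated lung lay above the highest one. Ventilated minus control gave −0.29 ± 0.24 (adjusted p = 0.632), below 0 under all 25 alternatives, from −0.51 among the dimmer arrays to −0.06 with a common median. The upper end of its 95% interval was 1.18-fold higher and the lower end 1.77-fold lower. Alveolar epithelium also carries ICAM-1, and 0 of 10 measured epithelial genes passed, with summed levels of 43154 to 55369 in controls and 48718 to 56947 in ventilated lungs; their part in the Icam1 values was not tested.

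Icam2, a constitutive endothelial ligand of LFA-1, varied within both groups. Its log2 levels were 10.30, 11.27 and 11.33 in controls and 10.43, 11.17, 11.05, 10.82 and 10.15 in ventilated lungs. Control 1, ventilated 1 and ventilated 5 were low and the other 5 lungs high, a division that cuts across the groups. Its log2 fold change was −0.24 ± 0.32 (adjusted p = 0.784), −0.58 without control 1 and −0.06 without control 3.

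Vcam1 encodes the endothelial ligand of the integrin VLA-4 on lymphocytes and monocytes. Its log2 levels were 8.91, 8.73 and 8.74 in controls and 9.56, 9.13, 9.24, 8.81 and 9.29 in ventilated lungs. Ventilated 4 lay below control 1, and the other ventilated lungs lay above all controls. The log2 fold change was 0.41 ± 0.22 (adjusted p = 0.432), with a 95% interval from 1.06-fold lower to 1.88-fold higher. It moved little over the 25 alternatives, between 0.33 without ventilated 1 and 0.52 with the replicate number as a block, and its adjusted p was at least 0.198 under each.

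**Figure D4:**
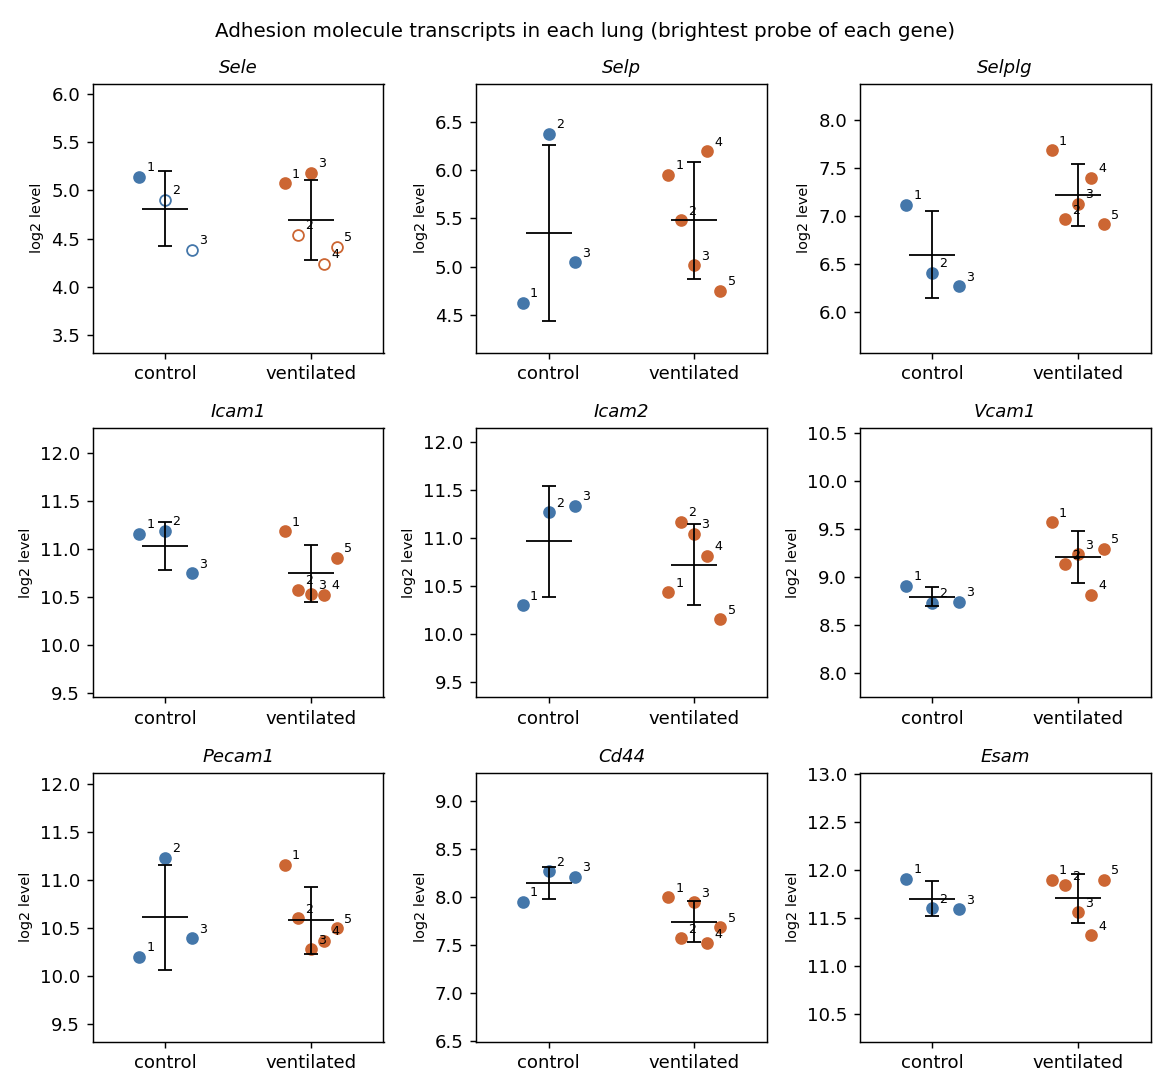
Normalized log2 level (y axis, the same span in every panel) of the brightest tested probe of each gene in 3 control and 5 ventilated lungs; numbers are replicate numbers, open points were not detected above background, and the black line and bars give the mean and SD. The groups overlap in all 9 panels, and 4 of the 5 ventilated lungs lie above all controls for Vcam1.

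Pecam1 encodes PECAM-1, which binds itself between neighbouring endothelial cells, leukocytes and platelets, and its 2 probes were detected on all arrays. Probe ILMN_2700982 had log2 levels of 10.20, 11.23 and 10.39 in controls and 11.16, 10.60, 10.28, 10.36 and 10.50 in ventilated lungs. Control 2 and ventilated 1 were high and the others lay close together, and the log2 fold change was −0.03 ± 0.30 (adjusted p = 0.974). Probe ILMN_3147074, annotated to another transcript of the gene, gave 8.92, 9.36 and 8.54 in controls and 9.62, 9.04, 9.37, 9.25 and 9.42 in ventilated lungs. Here 3 of the 5 ventilated lungs lay above all controls, with a log2 fold change of 0.40 ± 0.25 (adjusted p = 0.501). The ratio of the second probe to the first differed between the groups by 0.43 on the log2 scale, which did not pass (p = 0.107 by exact permutation, two-sided, where 56 splits allow 0.0357 at the least). Without control 2 the log2 fold changes of the probes were 0.28 and 0.61, and without control 3 they were −0.14 and 0.20. Among the dimmer arrays they were −0.69 and 0.05.

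Esam, an adhesion molecule of endothelial tight junctions that platelets also carry, had the smallest difference of the members. Its log2 levels were 11.91, 11.60 and 11.59 in controls and 11.90, 11.84, 11.56, 11.32 and 11.90 in ventilated lungs. Ventilated 3 and 4 lay below every control and none above. Between the groups the log2 fold change was 0.00 ± 0.23 (adjusted p = 0.995), and the 95% interval allowed up to 1.42-fold higher and 1.41-fold lower.

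Endothelial genes other than the members had 1 of 13 measured genes past the threshold, Sox18, an endothelial transcription factor, with a log2 fold change of −1.63 ± 0.28 (adjusted p = 0.0202) and levels below every control in 5 of 5 ventilated lungs. That call was lost under 9 of the 25 alternatives. It was lost without control 1 (−1.47, adjusted p = 0.0618), ventilated 3 (−1.62) or ventilated 4 (−1.56). The deposited value table also ended it (−1.36, limma adjusted p = 0.437), as did a common median (−1.56). Tek, Egfl7, Ramp2 and Robo4 also lay below every control in 5 of 5 ventilated lungs, at −0.67, −0.39, −0.49 and −0.74. None of them passed (limma adjusted p of 0.148 to 0.45). Of all probes tested, 6.08% were lower without overlap. The remaining genes of the list overlapped between the groups, and Cdh5, Sox17, Tal1 and Ptprb had log2 fold changes of 0.41 to 0.69. The summed level of the list was 17271 to 21668 in controls and 13311 to 17855 in ventilated lungs. On the array were 16 of its 17 genes, and Clec14a was detected on none. Relative to the mean log2 level of this list in the same lung, Selplg and Vcam1 were higher in every ventilated lung than in any control. For Vcam1 these values were 8.71, 8.85 and 8.82 in controls and 9.75, 9.30, 9.70, 9.17 and 9.32 in ventilated lungs. That made 2 of 14 member probes with higher, non-overlapping values, beside 11.4% of all probes after the same subtraction, so the share is near the background. None of the 14 was lower without overlap, beside 1.71% of all probes.

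Cd44 encodes the hyaluronan receptor of leukocytes, epithelium and mesenchyme, and its probes did not move one way. The brightest, ILMN_3114585, was the one probe of 6 detected on all arrays, with log2 levels of 7.95, 8.27 and 8.21 in controls and 8.0, 7.57, 7.94, 7.52 and 7.68 in ventilated lungs. Every ventilated lung but ventilated 1 lay below all controls, yet the log2 fold change of −0.40 ± 0.22 did not pass (adjusted p = 0.431). It was below 0 under all 25 alternatives, from −0.49 to −0.29.

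The other Cd44 probes lay near background. ILMN_2640330 had log2 levels of 5.28, 5.00 and 5.05 in controls and 5.33, 5.11, 5.29, 5.80 and 5.07 in ventilated lungs, a log2 fold change of 0.21 ± 0.23. It was not above background on control 2, and the groups overlapped. ILMN_2754990 and ILMN_2730266 had log2 fold changes of −0.34 ± 0.27 and −0.28 ± 0.32. ILMN_1246460 was detected on no control array and 3 of 5 ventilated arrays; the ventilated mean did not exceed the detection limit of the controls, so no fold is given.

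The members did not vary as a block over the lungs. Between the 9 probes detected on all arrays, Pearson correlations over the 8 arrays ran from −0.58, between Selplg and Icam2, to 0.71, between Selp and the brighter Pecam1 probe, with a median of 0.13 over 36 pairs. They are given as a description, since all probes of an array share its brightness.

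Partner genes of the same adhesion steps were taken from 6 lists with 77 genes, of which 70 were on the array and 49 were measured. Of the 49, 1 rose and 1 fell, beside 0.987% and 0.628% of all probes, and their median log2 fold change was 0.13 beside 0.01 over all probes. Pvr, the poliovirus receptor, which sits at endothelial junctions and takes part in monocyte passage, had log2 levels of 5.53, 4.67 and 5.49 in controls and 7.27, 6.66, 6.74, 6.82 and 6.34 in ventilated lungs. It was higher in 5 of 5 ventilated lungs than in any control, by 1.53 ± 0.28 (adjusted p = 0.029), and was detected on 2 of 3 control arrays. The call was lost under 11 of the 24 alternatives that included the probe. It was lost without control 3 or without ventilated 1, 2, 3 or 4, at 1.45 to 1.61 and adjusted p of 0.0618 to 0.0855. It was also lost in the deposited value table (0.60, limma adjusted p = 0.957), with a common median (0.80) and with the replicate number as a block (1.66).

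Tpst1, one of the sulphotransferases that modify tyrosines of PSGL-1 for selectin binding, fell. Its log2 levels were 8.56, 8.77 and 8.33 in controls and 7.72, 7.63, 7.39, 7.30 and 7.46 in ventilated lungs, so that the groups lay apart. The log2 fold change was −1.05 ± 0.21 (adjusted p = 0.0405), and leaving out any 1 array ended the call, at −1.16 to −0.95 with adjusted p of 0.0714 to 0.115. In all, the call was lost under 14 of the 25 alternatives. Among the brighter and dimmer arrays the log2 fold change was −0.92 and −1.18. Of the 10 measured genes of selectin ligand synthesis it was the only 1 past the threshold. Tpst2, on the same list, went the other way at 0.86 ± 0.28, with overlapping groups (limma adjusted p = 0.173).

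The remaining 4 lists had no gene past the threshold, among 10 measured genes of leukocyte integrins and their activators, 7 of docking structures and tetraspanins, 5 of selectin and mucin partners and 5 of hyaluronan and shedding. By smallest p these were Itga9, an integrin subunit that can bind VCAM-1 (1.01 ± 0.37, adjusted p = 0.232, with ventilated 1 apart from the other ventilated lungs at a level of 6.03), and Ezr, which links ICAM-1 to actin (0.47 ± 0.24, adjusted p = 0.404). Without control 2, Itga9 stood at 0.56 and Ezr at 0.25. Itga9 stood at 0.30 with a common median and 0.25 in the deposited value table, and Ezr at 0.08 among the brighter and 1.02 among the dimmer arrays. Cd34, a sialomucin of endothelium, stood at 1.06 ± 0.44 (adjusted p = 0.286) and 0.39 without control 2. Mmp14, a membrane protease that sheds CD44, stood at 1.38 ± 0.36 (adjusted p = 0.0975), higher in 5 of 5 ventilated lungs than in any control. Array weights brought Mmp14 past the threshold (adjusted p = 0.017), as did brightness as a covariate (adjusted p = 0.048). Its adjusted p was under 0.05 in these 2 of 25 alternatives alone. Leaving out 1 array gave limma adjusted p of 0.0636 to 0.215, and the deposited value table gave 0.499.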

How the data were processed

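Total RNA of 8 whole lungs was isolated (Trizol, then RNeasy), turned into biotinylated cRNA and, per the labels, measured on Illumina bead arrays. Per the file headers, the authors deposited 1 intensity per probe and array without normalization, and a detection p-value beside each. A deposited value table holds the same intensities times 1 factor per array, with 1 value off its factor. The sources used here give neither scanner nor software.

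Of 25697 probes, 23978 carried a gene symbol in the platform annotation; a RefSeq table changed 0 of them. In R 4.3.3, neqc of limma 3.58.1 was run with background estimated through the detection p-values, an offset of 16, quantiles and log2. Detection at p under 0.05 on 3 or more arrays kept 13374 probes, and each was tested. Groups were compared with lmFit and eBayes, two-sided, with Benjamini-Hochberg adjustment over all 13374 probes, at 0.05; the fit was tested on simulated data. Partner and marker genes were represented by their brightest kept probe. Fold changes are on the scale with the offset, which understates changes of dim probes. Relations to brightness and the ratio of the Pecam1 probes were tested by exact permutation with scipy 1.17.1, and figures drawn with matplotlib 3.10.9.

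The members and lists were chosen with earlier results of these data known. Named genes are all member probes, per partner list the genes past the threshold or the one with the smallest p, and the 5 genes most like the member with the smallest p. Tpst2 was added beside Tpst1 as a gene of the same list. Alternatives changed background, normalization, filter, probe choice, variance model, array weights, brightness, replicate block and arrays left out. Macrophage and skeletal muscle genes, with 4 and 5 measured members, had 0 past the threshold.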

Additional observations from a re-analysis of the deposited data

Results flagged for a closer look

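One partner gene had a lung far from the others of its group. Itga9 stood at a log2 level of 6.03 in ventilated 1, where the nearest of the other ventilated lungs stood at 6.81 and the gap filled a share of 0.83 of the group's range, above the critical 0.71 for 5 samples. Chance alone picks out about 5% of groups in this way, and 21 were examined.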

How the results depend on the processing

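The count of member probes past the threshold was 0 under the main setting and under all 25 alternatives, also where many more probes passed. The sign of the log2 fold change held for Selplg, Icam1, Vcam1, the dimmer Pecam1 probe and 2 Cd44 probes (ILMN_3114585 and ILMN_2754990), and turned for the other member probes with a fold under 1 (Icam2) to 9 (the brighter Pecam1 probe) of the alternatives. Over all probes, 216 passed, 132 higher and 84 lower. With array weights 1025 passed, with brightness as a covariate 638, with brightness as a block 345, with cyclic loess 332 and at an adjusted p under 0.1 435. With a common median 0 passed, and there the median of all probes moved to −0.12, against which Selplg stood at 0.27 and Vcam1 at 0.44. The deposited value table gave 7, all higher, the brighter 4 arrays 29 and the dimmer 4 arrays 2. Leaving out the dimmest array of each group, an alternative chosen after seeing the data, gave 124, and leaving out 1 array gave 62 to 178.

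Of the partner genes 2 passed, 5 with array weights or with brightness as a covariate and 1 when detection on all arrays was required. None passed with a common median, the deposited value table, the brighter or the dimmer arrays alone or without the dimmest array of each group; leaving out 1 array gave 0 to 1. Where fewer arrays were fitted, fewer samples entered the test; elsewhere the cause was not tested.

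The labels do not say whether equal replicate numbers pair the samples. Deviations from the group means correlated at −0.37, −0.35 and 0.35 for numbers 1 to 3, too few values to settle it. With the number as a replicate block 0 member probes, 2 probes in all and 0 partner genes passed. Leaving a single control, the dimmer arrays assume that it varies like the others. Selp, Sele and all Cd44 probes but the brightest lie close to background, where signal limits what can be seen.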
